A study of Mus musculus with 4 samples.

Results

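Described here are 10 CXC and CX3C chemokine ligands among the 17335 genes measured by RNA-seq in gonadal white adipose tissue (gWAT): Cxcl1, Cxcl2, Cxcl5, Cxcl9, Cxcl10, Cxcl12, Cxcl13, Cxcl14, Cxcl16 and Cx3cl1. They were chosen by name from these families, with earlier results of these data known, and all 10 are in the table. They are not the whole of the families: Cxcl3, Cxcl11, Cxcl17, Pf4 and Ppbp are also in the table and are given further on with the other ligands. Cxcl9 and Cxcl10, ligands induced by interferon-gamma, were 11.8-fold and 6.22-fold lower in AD1KO than in fl/fl gWAT. Cxcl14, Cxcl16 and Cx3cl1 were lower by smaller amounts, and Cxcl12 and Cxcl13 were at nearly equal levels in both.

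AD1KO mice carry floxed Dnmt1 alleles, with exons 4 and 5 between the loxP sites, and an adiponectin-Cre transgene. The authors describe this Cre as expressed mainly in mature adipocytes. The fl/fl mice are floxed littermates of AD1KO mice and carry no deletion. Both groups were female and were fed a high-fat diet (HFD) for 18 weeks, with 60% of calories from fat. Their age was not given in the sources used here. RNA of 4 mice per group was pooled in equal amounts into 1 library per group, so no value below carries a spread between animals and no p-value was computed.

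Chemokines are small secreted proteins that direct the movement of leukocytes through G protein-coupled receptors, and the spacing of their first cysteines gives the families their names. Some ligands are made at rest and place cells within a tissue, while others are induced by interferon-gamma, tumor necrosis factor or interleukins and draw T cells, NK cells or neutrophils to inflamed sites. Obese white fat is one such site, where macrophages gather around adipocytes and T cells accumulate.

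Levels are in FPKM, a fragment count divided by both the length of the transcript and the size of the library, so that levels can be compared between genes. Ratios are log2 of AD1KO over fl/fl after adding 0.01 FPKM. A gene with at least 0.1 FPKM in 1 library was tested, and genes past a log2 ratio of 0.5 either way were called lower or higher. Reads worked back from FPKM and transcript length sum to 17773433 in fl/fl and 17521269 in AD1KO. Intervals are 95% exact counting intervals on these reads, which cover counting error only. The targeted gene, Dnmt1, was at 6.99 FPKM in fl/fl and 3.33 FPKM in AD1KO, which is a ratio of -1.07 (interval -1.27 to -0.87). Adipocyte markers, with Fabp4 at 11151 FPKM in fl/fl and 15920 FPKM in AD1KO, were abundant in both libraries.

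Of the 10 ligands, 8 have a promoter sequence in the RefSeq table used here, and each matched mm9 once. The 250 bases before the start of Cxcl9 (chr5:92757106-92757355, minus strand) and Cxcl10 (chr5:92777916-92778165, minus strand) are shown because these genes had the lowest ratios of the 10. Stretches of 100 bases are shown for Cxcl14 (chr13:56398023-56398122, minus strand), which has matches to both interferon motifs searched, and for Cxcl1 (chr5:91320131-91320230, plus strand) and Cxcl2 (chr5:91332785-91332884, plus strand), whose ratios were near 0. Capitals mark matches on either strand to the interferon-stimulated response element core GAAANNGAA, the gamma-activated sequence TTCNNNGAA or the NF-kappaB consensus.
Cxcl9: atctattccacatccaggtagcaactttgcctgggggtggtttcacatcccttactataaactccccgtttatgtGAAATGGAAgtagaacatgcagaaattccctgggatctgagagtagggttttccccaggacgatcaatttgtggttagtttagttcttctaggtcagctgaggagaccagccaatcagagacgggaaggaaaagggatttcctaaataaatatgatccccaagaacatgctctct
Cxcl10: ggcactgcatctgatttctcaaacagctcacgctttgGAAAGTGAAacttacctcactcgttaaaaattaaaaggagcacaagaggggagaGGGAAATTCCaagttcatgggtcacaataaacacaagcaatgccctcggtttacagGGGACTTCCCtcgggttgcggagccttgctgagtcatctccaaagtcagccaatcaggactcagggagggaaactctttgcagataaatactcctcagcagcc
Cxcl14: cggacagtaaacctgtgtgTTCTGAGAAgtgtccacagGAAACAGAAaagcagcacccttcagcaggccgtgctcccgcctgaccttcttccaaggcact
Cxcl1: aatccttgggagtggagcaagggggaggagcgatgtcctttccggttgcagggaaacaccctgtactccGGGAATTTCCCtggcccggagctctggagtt
Cxcl2: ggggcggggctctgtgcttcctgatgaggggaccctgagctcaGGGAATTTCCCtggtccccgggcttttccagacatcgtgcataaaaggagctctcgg

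Counted back from the RefSeq start, GAAANNGAA lay at -175 in Cxcl9, at -213 in Cxcl10 and at -172 in Cxcl14, and TTCNNNGAA lay at -191 in Cxcl14. The NF-kappaB consensus matched Cxcl10 at -159 and at -103. In Cxcl1 and Cxcl2 the capitals are a palindrome of overlapping matches on opposite strands, starting at -71 and -97. Among 32851 windows of 250 bases before RefSeq starts, 7.13% held GAAANNGAA, 7.02% held TTCNNNGAA and 3.9% held the NF-kappaB consensus. None of these letters were found in the windows of Cxcl12, Cxcl13 and Cx3cl1. DNMT1 copies methylation at CpG dinucleotides, so their number in each window is given too. It was 3 in Cxcl9, 5 in Cxcl10 and 2 in Cxcl13, below the median of 6 over all windows, and 16 in Cxcl14, 14 in Cxcl12, 14 in Cx3cl1, 10 in Cxcl1 and 9 in Cxcl2. Among these 8 windows, CpG-poor and CpG-rich ones each belong to ligands with lower ratios and to ligands with ratios near 0. Cxcl16 and Cxcl5 have no window here, and whether the number of CpG bears on the ratios was not tested. Methylation at these windows was not analysed here.

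Of these ligands 9 could be tested, since Cxcl5 was below the minimum in both libraries. Of the 9 tested, 5 were lower and 0 were higher in AD1KO, against 19.1% lower and 14.3% higher among all 15839 genes tested. The whole counting interval lay below -0.5 for 4 of them (Cxcl9, Cxcl10, Cxcl14 and Cxcl16), against 8.29% of all genes tested. The interval held 0 for another 4 (Cxcl1, Cxcl2, Cxcl12 and Cxcl13), against 49.5% of all genes tested. The median log2 ratio of the 9 was -0.79, beside -0.04 over all genes tested. The 9 therefore split into ligands that were clearly lower and ligands whose 2 libraries could not be told apart by counting, with Cx3cl1 between them.

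**Figure D1:**
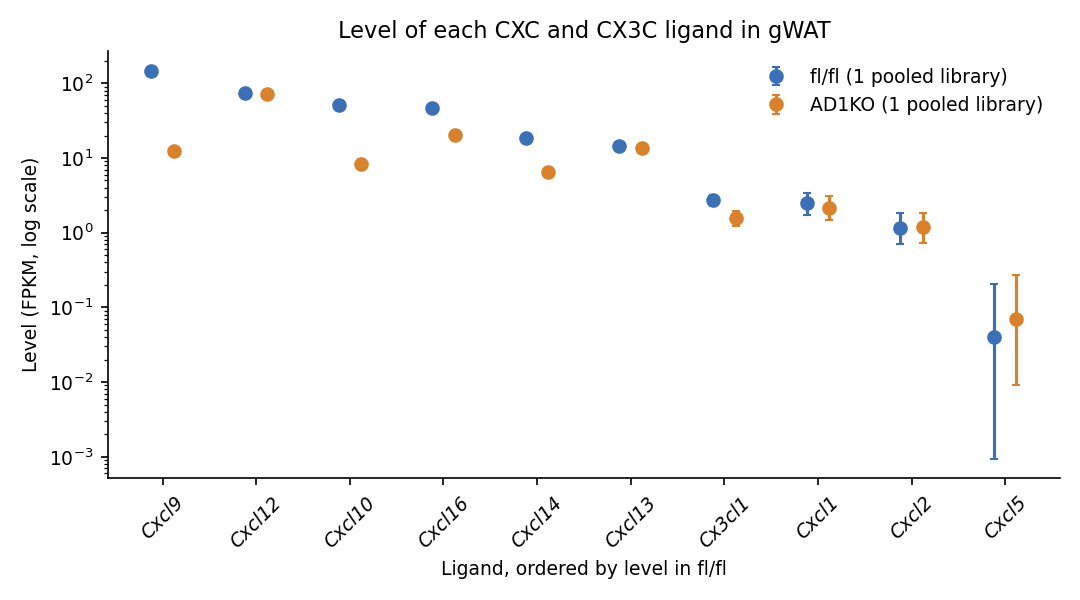
Level of each ligand in FPKM on a log axis, in the fl/fl library (blue) and the AD1KO library (orange), with 95% counting intervals and 1 pooled library per group. Levels in fl/fl run from 146 FPKM for Cxcl9 to 0.04 FPKM for Cxcl5, and the widest gaps between the libraries are at Cxcl9 and Cxcl10.

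Cxcl9, also called Mig, attracts activated T cells and NK cells through CXCR3. It (gene 17329, on the minus strand at chr5:92750357-92757105 of mm9) was the most abundant of the 10 ligands in fl/fl, at 146 FPKM (interval 143 to 150, 7198 reads). In AD1KO it was at 12.4 FPKM (interval 11.4 to 13.5, 603 reads). The log2 ratio was -3.56 (interval -3.68 to -3.44), and 209 of the genes tested, or 1.32%, had a lower one. By level, Cxcl9 went from position 608 to position 4900 among the 17335 genes.

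Cxcl10, or IP-10, binds the same receptor and is induced by both type I interferons and interferon-gamma. It (gene 15945, on the minus strand at chr5:92775664-92777915 of mm9) was at 52.0 FPKM in fl/fl (interval 48.7 to 55.4, 920 reads) and at 8.36 FPKM in AD1KO (interval 7.05 to 9.82, 146 reads). The log2 ratio was -2.63 (interval -2.90 to -2.39), with 283 tested genes lower. The ligands of this pair did not differ by the same amount: Cxcl9 exceeded Cxcl10 by 2.82-fold in fl/fl and by 1.48-fold in AD1KO, and the difference of their log2 ratios was -0.93 (interval -1.20 to -0.63). Annotated exons of Cxcl10, 1520 bases in all beside a listed transcript length of 1120, share 133 bases with Art3 exons on the opposite strand. No source used here says that counting used the strand. Art3 itself was at 86.5 FPKM in fl/fl and 134 FPKM in AD1KO, above Cxcl10 in both, so reads of the pair may be mixed. How far this affects the AD1KO level of Cxcl10, its ratio and its gap to Cxcl9 was not tested.

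Cxcl16 and Cx3cl1 are the only ligands of the family made as membrane proteins with a mucin-like stalk, and metalloproteases can release their chemokine domain. Cxcl16, which binds CXCR6 and also takes up oxidized lipoprotein (gene 66102, on the minus strand at chr11:70267485-70273486 of mm9), was at 47.2 FPKM in fl/fl (interval 44.5 to 49.98, 1159 reads) and 20.2 FPKM in AD1KO (interval 18.4 to 22.03, 489 reads). It was 2.34-fold lower, a log2 ratio of -1.23 (interval -1.38 to -1.07). Its annotated exons, 3021 bases in all beside a listed transcript length of 1509, share 552 bases with Zmynd15 on the opposite strand, so reads of the pair may be mixed. Zmynd15 was at 2.90 FPKM in fl/fl and 1.97 FPKM in AD1KO, far below Cxcl16 in both libraries.

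Cx3cl1, or fractalkine, holds and attracts monocytes and other CX3CR1-bearing cells (gene 20312, on the plus strand at chr8:97295909-97306323 of mm9). It was at 2.70 FPKM in fl/fl (interval 2.28 to 3.18, 144 reads) and 1.56 FPKM in AD1KO (interval 1.24 to 1.93, 82 reads). The log2 ratio of -0.79 (interval -1.20 to -0.39) excludes 0 but not a change smaller than 0.5. The ratio of Cxcl16 minus that of Cx3cl1 was -0.44, with an interval of -0.86 to 0.01 that just includes 0.

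Cxcl14 is a ligand made by epithelial, stromal and fat cells, and its receptor is less settled than those of the other ligands. Cxcl14 (gene 57266, on the minus strand at chr13:56390008-56397912 of mm9) was at 18.3 FPKM in fl/fl (interval 16.8 to 19.8, 557 reads) and 6.46 FPKM in AD1KO (interval 5.59 to 7.44, 195 reads). It was 2.83-fold lower, a log2 ratio of -1.5 (interval -1.74 to -1.26). This is a smaller difference than that of Cxcl10, by 1.14 on the log2 scale for the pair (-1.14 for Cxcl10 against Cxcl14, interval -1.49 to -0.79), and could not be separated from that of Cxcl16 (difference -0.27, interval -0.56 to 0.01).

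Cxcl12, or SDF-1, is made at rest by stromal and endothelial cells and retains CXCR4-bearing cells in tissues. Cxcl12 (gene 20315, on the plus strand at chr6:117118553-117131385 of mm9) was at 73.5 FPKM in fl/fl (2760 reads) and 72.7 FPKM in AD1KO (2696 reads). The log2 ratio of -0.02 (interval -0.09 to 0.06) had the narrowest interval of the 9, and it places any difference between these libraries well inside 0.5. Cxcl13, which guides B cells through CXCR5 (gene 55985, on the plus strand at chr5:96385945-96390086 of mm9), was at 14.4 FPKM in fl/fl (266 reads) and 13.5 FPKM in AD1KO (247 reads), which is a ratio of -0.09 (interval -0.35 to 0.17). The ratio of Cxcl13 minus that of Cxcl12 was -0.08 (interval -0.34 to 0.19).

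Cxcl1, Cxcl2 and Cxcl5 attract neutrophils through CXCR2 and carry the ELR motif before their first cysteine. All 3 were low in gWAT of both groups. Cxcl1 (gene 14825, on the plus strand at chr5:91320267-91322141 of mm9) was at 2.47 FPKM in fl/fl and 2.16 FPKM in AD1KO (37 and 32 reads), which is a ratio of -0.19 (interval -0.92 to 0.53). Cxcl2 (gene 20310, on the plus strand at chr5:91332897-91334935 of mm9) was at 1.17 FPKM in fl/fl and 1.18 FPKM in AD1KO, with 20 reads in each library and an interval of -0.95 to 0.99 around 0.01. At this depth a difference of up to nearly 1 on the log2 scale in either direction was not detectable for Cxcl2. Cxcl5 (gene 20311, on the plus strand at chr5:91188325-91190651 of mm9) was at 0.04 FPKM in fl/fl and 0.07 FPKM in AD1KO, from 1 and 2 reads, too few for a comparison. Summed over the 3, the level was 3.68 FPKM in fl/fl and 3.41 FPKM in AD1KO, which is a ratio of -0.11 (interval -0.65 to 0.43). The Cxcl2 transcript shares an exact stretch of 110 bases with that of Cxcl3, so reads may be exchanged between these genes, while the other pairs compared among the 10 ligands, Cxcl3 and Cxcl15 share at most 23.

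**Figure D2:**
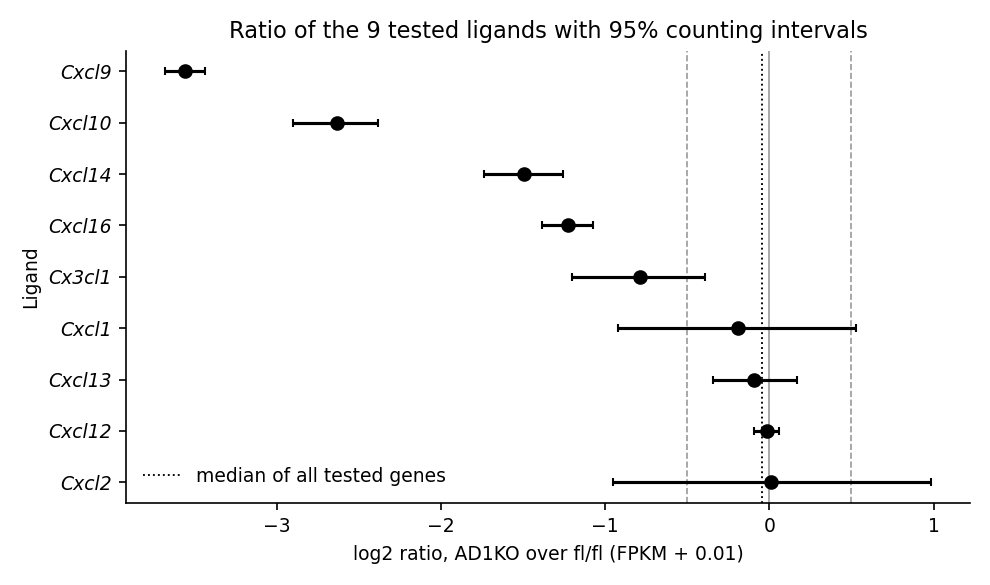
Ratios (log2, AD1KO to fl/fl) of the 9 tested ligands with 95% counting intervals, dashed lines at -0.5 and 0.5 and a dotted line at the median of all genes tested. Cxcl9, Cxcl10, Cxcl14 and Cxcl16 lie wholly below -0.5, and Cxcl1, Cxcl2, Cxcl12 and Cxcl13 have intervals that hold 0.

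The makeup of the ligand pool differed as well as its size. Summed over the 10 ligands, the level was 358 FPKM in fl/fl and 139 FPKM in AD1KO, which is a ratio of -1.37 (interval -1.42 to -1.32). Cxcl9 accounted for 61.0% of the FPKM lost, Cxcl10 for 19.9%, Cxcl16 for 12.3% and Cxcl14 for 5.37%. The sum rests on the interferon-induced pair: without Cxcl9 the log2 ratio of the sum was -0.75, and without Cxcl9 and Cxcl10 it was -0.44 (interval -0.50 to -0.38). Cxcl9 made up 40.9% of the summed level in fl/fl and 8.95% in AD1KO, and Cxcl12 made up 20.5% and 52.5%. In fl/fl there were 1.99 Cxcl9 transcripts per Cxcl12 transcript, by FPKM, and in AD1KO there were 0.171. The order of levels in fl/fl was Cxcl9, Cxcl12, Cxcl10, Cxcl16, Cxcl14, Cxcl13, Cx3cl1, Cxcl1, Cxcl2 and Cxcl5. In AD1KO it was Cxcl12, Cxcl16, Cxcl13, Cxcl9, Cxcl10, Cxcl14, Cxcl1, Cx3cl1, Cxcl2 and Cxcl5. The counting intervals of neighbours in these orders overlapped for Cxcl10 and Cxcl16, for Cx3cl1 and Cxcl1 and for Cxcl1 and Cxcl2 in fl/fl. In AD1KO they overlapped for Cxcl13 and Cxcl9, for Cxcl10 and Cxcl14, for Cxcl1 and Cx3cl1 and for Cx3cl1 and Cxcl2.

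**Figure D3:**
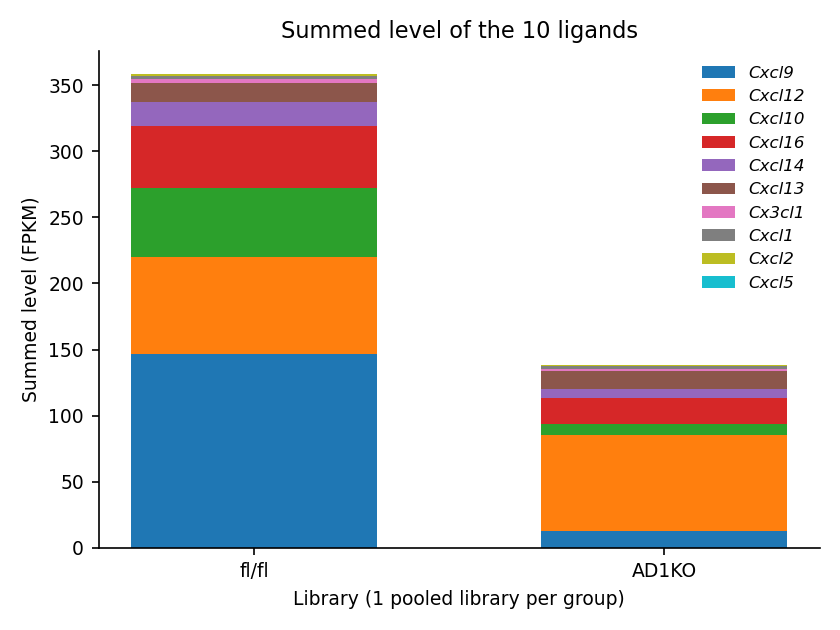
Summed level of the 10 ligands in FPKM, stacked by ligand, in the fl/fl and the AD1KO library. The stack reaches 358 FPKM in fl/fl and 139 FPKM in AD1KO, and Cxcl12 takes 20.5% of it in fl/fl and 52.5% in AD1KO.

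Of 10 receptors of CXC, CX3C and XC ligands, 9 are in the table (Cxcr1 is not listed). Xcr1 is among the 9, but its ligand Xcl1 is not one of the 10 ligands described here. In AD1KO 6 of the 9, Xcr1 included, were lower, against 19.1% of all genes tested, and 0 were higher. All 9 had a ratio below 0, against 53.8% of all genes tested. The whole interval lay below -0.5 for 4, Cxcr3, Cxcr4, Cxcr6 and Xcr1. The other calls were lost under an alternative: Cxcr2, whose interval held 0, was at -0.16 with a pseudocount of 1 FPKM, and Ackr1 was at -0.47 with that pseudocount or with upper-quartile scaling. Cxcr3, the receptor of Cxcl9 and Cxcl10 on T and NK cells, was at 11.0 FPKM in fl/fl and 2.90 FPKM in AD1KO, which is a ratio of -1.92 (interval -2.32 to -1.56). Cxcr6, the receptor of Cxcl16, was at 4.26 FPKM in fl/fl and 1.28 FPKM in AD1KO (-1.73, interval -2.26 to -1.20). Both receptors were thus lower along with their ligands. The ratio of Cxcl9 was below that of Cxcr3, with a difference of -1.64 on the log2 scale, and their intervals do not overlap.

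Cxcl12 and its receptor did not go together. Cxcr4 was at 13.1 FPKM in fl/fl and 6.53 FPKM in AD1KO, which is a ratio of -1.0 (interval -1.26 to -0.75), while the Cxcl12 interval ended at -0.09. Ackr3, a scavenger of Cxcl12, had a ratio of -0.27 (interval -0.42 to -0.12). Cxcr5, the receptor of Cxcl13, was at 3.34 FPKM in fl/fl and 3.24 FPKM in AD1KO, as level as its ligand. Cx3cr1 was at 1.30 and 0.94 FPKM (-0.46, interval -0.95 to 0.05), and Cxcr2 was at 0.31 and 0.17 FPKM from 16 and 9 reads. Ackr1, which binds many inflammatory chemokines on red cells and venules, was at 6.51 and 4.43 FPKM (-0.55). Xcr1, on cross-presenting dendritic cells, was at 1.88 and 0.50 FPKM (-1.89), and its ligand Xcl1 was at 7.65 and 2.23 FPKM (-1.77).

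**Figure D4:**
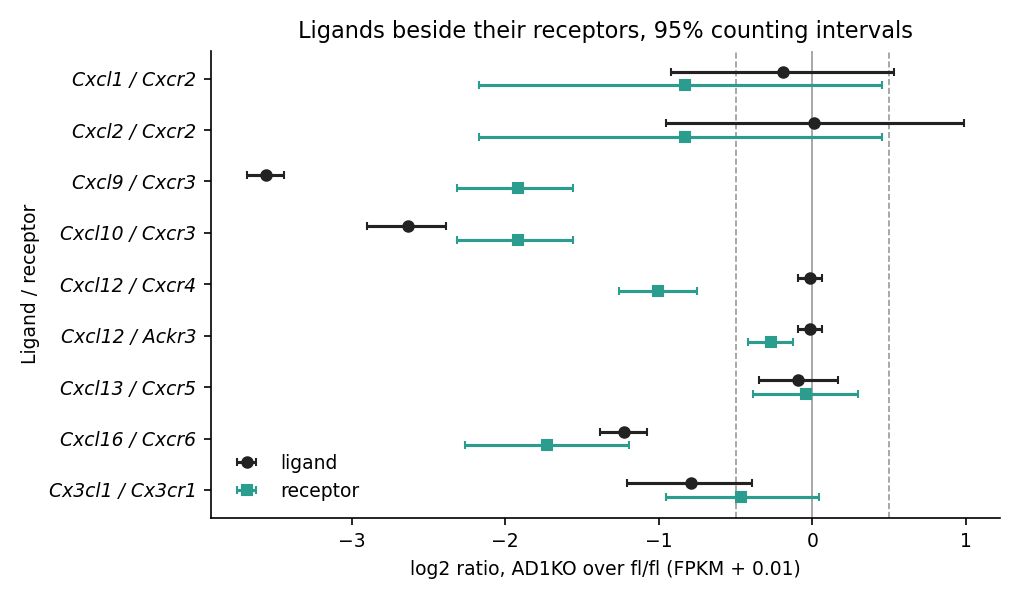
Ratios (log2, AD1KO to fl/fl) of ligands (black circles) beside their receptors (green squares), with 95% counting intervals and dashed lines at -0.5 and 0.5. Cxcl12 is drawn with both Cxcr4 and Ackr3, and Cxcl5 and Cxcl14 are not drawn. Cxcl9, Cxcl10 and Cxcl16 are lower along with Cxcr3 and Cxcr6, whereas Cxcl12 sits at 0 beside Cxcr4 at -1.0.

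Other ligands of the CXC and XC families were listed for 6 of 7 genes (Cxcl15 is not listed), with 5 lower, against 19.1% of all genes tested, and 0 higher. The whole interval lay below -0.5 for 3, Pf4, Xcl1 and Cxcl17, and with a pseudocount of 1 FPKM Cxcl3 and Cxcl11 lost the call, at -0.31 and -0.30. Pf4, a platelet and macrophage chemokine, was the most abundant of them at 193 FPKM in fl/fl and 120 FPKM in AD1KO (-0.69, interval -0.80 to -0.58). Cxcl11, whose product is known as another Cxcr3 ligand, is annotated in mm9 as a processed transcript and not as protein-coding. It was at 0.23 FPKM in fl/fl from 6 reads and was listed at 0 in AD1KO, which a true expectation of up to 3 reads allows. Cxcl17 was at 0.70 FPKM in fl/fl from 8 reads and likewise at 0 in AD1KO, and Cxcl3 was at 0.31 and 0.06 FPKM from 5 reads and 1 read. The calls of these 3 rest on 5 to 8 reads in fl/fl. The interval of Cxcl17 ended at -0.75 and that of Cxcl11 at -0.22, and that of Cxcl3 held 0.

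Genes upstream of the ligands were lower in 11 of 18 cases, against 19.1% of all genes tested, and higher in 0 (Il17a is not listed). The whole interval lay below -0.5 for 8. Each of the 3 other scalings took Il1b and Nfkbia out of the call, to -0.43 and -0.44 with the upper quartile, and a pseudocount of 1 FPKM took out Il1b and Il17ra, at -0.26 and -0.497. Ifng, the cytokine that induces Cxcl9, was at 2.12 FPKM in fl/fl (41 reads) and 0.21 FPKM in AD1KO (4 reads), which is a ratio of -3.28 (interval -5.28 to -1.88). Irf1, a transcription factor induced by interferon-gamma, was at 74.7 and 20.1 FPKM (-1.90). The chains of the interferon-gamma receptor and its kinases did not pass the call: Ifngr1 had a ratio of -0.12, Ifngr2 -0.41, Jak1 -0.13 and Jak2 -0.49. On the NF-kappaB side, Tnf was at 4.34 and 1.60 FPKM (-1.43), Nfkb1 had a ratio of -0.63 and Rela -0.23. Il1b, at 1.19 and 0.83 FPKM, had a ratio of -0.51 with an interval of -1.47 to 0.41. Nfkbiz, which acts with NF-kappaB, had a ratio of -0.96, and Lta and Ltb, ligands of the lymphotoxin pathway known to induce Cxcl13, had ratios of -2.24 and -1.06, with 25 reads of Lta in fl/fl and 5 in AD1KO. Cxcl13 itself stayed at -0.09, and Ltbr, the receptor of lymphotoxin on stromal cells, was at 0.16.

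Of 9 enzymes and binding proteins that act on these ligands, 2 were lower and 2 higher, near the 19.1% and 14.3% of all genes tested. Adam17, a sheddase of Cx3cl1, was at 12.95 FPKM in fl/fl and 8.24 FPKM in AD1KO (-0.65), and Adam10, which sheds both membrane ligands, was at 12.95 and 12.5 FPKM (-0.05). Dpp4, which trims and inactivates Cxcl9, Cxcl10 and Cxcl12, was at 7.23 and 10.3 FPKM (0.50), just past the call, and lost it at 0.498 and 0.45 with a pseudocount of 0.1 and 1 FPKM. Mmp9, a gelatinase, was at 1.03 and 2.43 FPKM (1.23, interval 0.77 to 1.71), and the syndecan Sdc1 was at 16.8 and 9.87 FPKM (-0.76).

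The genes with at least 10 FPKM in 1 library whose ratio lay nearest to that of Cxcl9, among 6155 candidates compared over these 2 libraries, were Serpina3g (-3.55), Gm12250 (-3.49), Igtp (-3.78), Tgtp2 (-3.34) and Fcgr4 (-3.21). Serpina3g was at 95.1 FPKM in fl/fl and 8.10 FPKM in AD1KO, and Igtp at 146 and 10.6 FPKM. Igtp and Tgtp2 encode interferon-inducible GTPases and Fcgr4 an activating Fc receptor. Tgtp2 has a close copy, Tgtp1, so its value is uncertain.

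Cxcl9, Cxcl10 and Cxcl11 lie side by side within 44.2 kb of chromosome 5. The annotated neighbours within 100 kb, looked at after the values were seen, did not share the ratios of Cxcl9 and Cxcl10. Naaa, a lysosomal amidase gene, was at 61.3 FPKM in fl/fl and 36.6 FPKM in AD1KO (-0.74), Sdad1 had a ratio of -0.37, Nup54 -0.12 and Scarb2 -0.14. Art3, whose span includes Cxcl10, was higher (0.63), and Ppef2 was at 0.12 and 0.21 FPKM. Cxcl1, Cxcl2 and Cxcl5 lie within another 147 kb of the same chromosome, together with Pf4, Ppbp and Cxcl3. In that block Cxcl1, Cxcl2 and Ppbp (1.32 and 1.57 FPKM, ratio 0.25) had intervals that held 0, while Pf4 was lower.

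Macrophage, T cell and NK cell markers were mostly lower in AD1KO, like some of the ligands and unlike others. In bulk tissue fewer cells of a type and less RNA per cell cannot be told apart. The counts below stand beside 19.1% lower and 14.3% higher among all genes tested. Macrophage markers were lower in 9 of 10 cases and their sum was 3497 FPKM in fl/fl and 1735 FPKM in AD1KO, which is a ratio of -1.01. T cell markers were lower in 9 of 9, with sums of 88.1 and 27.1 FPKM (-1.70), and NK and cytotoxic markers in 10 of 10, with sums of 65.6 and 16.9 FPKM (-1.95). Adipocyte markers were higher in 9 of 10, with sums of 17680 and 27595 FPKM. All of these lists were detected in both libraries. B cell markers were lower in 6 of 10 (109 and 72.0 FPKM), plasma cell markers in 4 of 6 (219 and 120 FPKM) and dendritic cell markers in 5 of 8, with 2 higher (30.9 and 17.3 FPKM).

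Stromal and endothelial cells are known sources of Cxcl12. Stromal progenitor markers summed to 1626 FPKM in fl/fl and 1816 FPKM in AD1KO, with 1 lower and 1 higher of 8. Endothelial markers summed to 101 and 124 FPKM, with 1 higher of 8. Among all genes tested 19.1% were lower and 14.3% higher, so 1 of 8 is near these shares. Lymphatic endothelial markers summed to 26.3 and 25.8 FPKM, with none of 3 tested called either way and Prox1 listed at 0 in both libraries. Mesothelial markers, of the lining of the fat pad, were higher in 6 of 6 (87.2 and 162 FPKM). Of 8 neutrophil markers tested, which include the receptor gene Cxcr2, 4 were lower and 3 higher, and the interval held 0 for 5. Their sum, 46.0 FPKM in fl/fl and 65.5 FPKM in AD1KO, was mostly S100a8, Ly6g is not listed and Mpo was listed at 0 in fl/fl.

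Set against the summed macrophage markers, a comparison added after the values were seen, every ligand ratio moves up by 1.01. Cxcl9 was at 41.9 FPKM per 1000 FPKM of macrophage markers in fl/fl and 7.15 in AD1KO, which is a ratio of -2.55, and Cxcl10 had a ratio of -1.62. Cxcl14 (-0.49) and Cxcl16 (-0.21) came nearer to 0, and Cx3cl1 turned to 0.22. Cxcl12 had a ratio of 1.00 and Cxcl13 of 0.92 on this scale. Against the summed T cell markers the ratio of Cxcl9 was -1.86 and that of Cxcl10 was -0.93, and against the summed NK and cytotoxic markers they were -1.61 and -0.68. Cxcl9 and Cxcl10 were thus lower in AD1KO relative to each of these 3 marker sums, while Cxcl14 and Cxcl16 had ratios below 0 against the macrophage sum and above 0 against the T cell sum (0.20 and 0.48) and the NK and cytotoxic sum (0.46 and 0.73). The macrophage sum was mostly Lyz2 (2341 FPKM in fl/fl and 1187 FPKM in AD1KO), so ratios against it depend largely on that gene. Nkg7 was the largest part of the NK and cytotoxic sum, at 32.6 of 65.6 FPKM in fl/fl and 8.04 of 16.9 FPKM in AD1KO. In that list Ncr1 (-2.91) and Klrb1c (-2.81), with 5 and 8 reads in AD1KO, had lower ratios than Cxcl10 (-2.63). The other markers of the list had higher ratios than Cxcl10. The part of cell makeup in the ligand ratios was not tested.

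**Figure D5:**
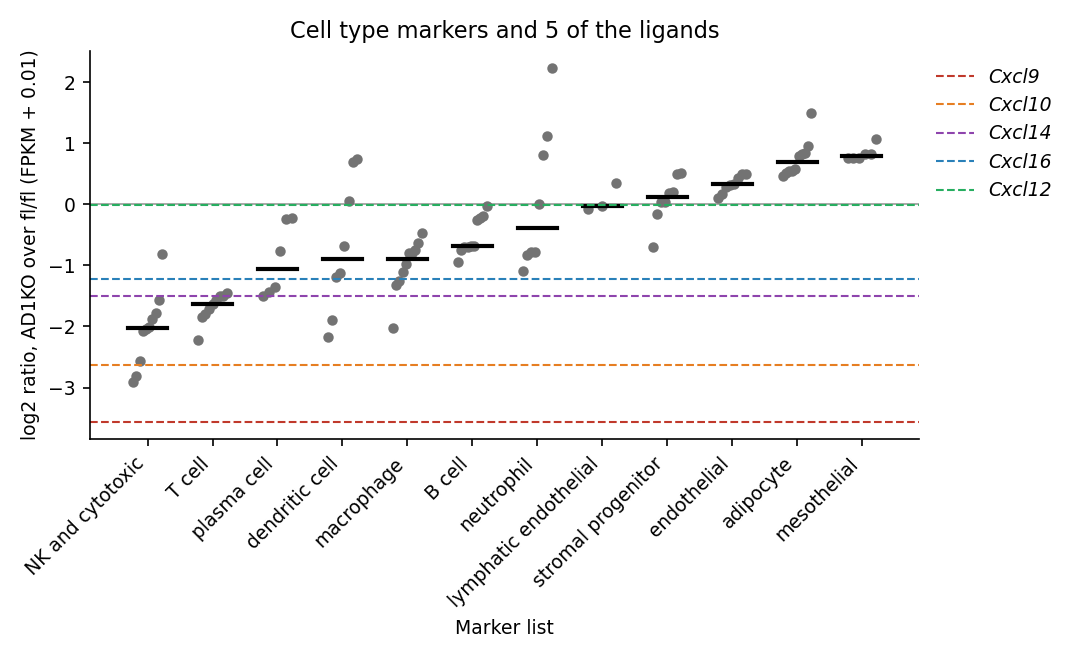
Ratios (log2, AD1KO to fl/fl) of the tested markers of 12 cell types (grey points, with the median of each list as a black bar), with dashed lines at the ratios of 5 of the ligands. The ratio of Cxcl9, -3.56, lies below every marker of every list, and Cxcl12 lies near the lymphatic endothelial and stromal lists.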

How the data were processed

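RNA of gWAT was sequenced on a BGISEQ-500 after oligo(dT) selection. Clean reads were aligned to mm9 by the authors' provider. The labels also name mm10, and the aligner and counting program are not given in the sources used here. The authors deposited 1 table of both libraries with FPKM per gene, transcript length, and columns of log2 fold change, P-value and FDR, which were not used. FPKM of 0 is written as 0.01 and was set back to 0. In long transcripts 1 read may also round to 0.01. The RRBS samples were not analysed here.

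Reads were computed from FPKM, length and a depth fitted so that low values became whole reads: 80.4% of 433 such values in fl/fl and 79.6% of 442 in AD1KO lay within 0.15 of a whole number, at depths of 17620000 and 17410000 reads. The remaining values were not whole, and reads summed over all genes, 17773433 in fl/fl and 17521269 in AD1KO, exceed these fitted depths. The reads, and the intervals that rest on them, are therefore approximate. Intervals are exact Clopper-Pearson (ratios) and Poisson (levels) intervals. No test across genes was run, since each group has 1 library. The steps were tested on simulated data.

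Named genes were the ligands, the other CXC and XC ligands, receptors, enzymes, inducers, Dnmt1 and Esr1, and the 5 genes nearest in ratio to the ligand with the largest one. One gene of the inducer list is not reported here by name. Members and lists were chosen with earlier results of these data known. Promoters are RefSeq sequences placed in mm9 by exact match, and positions are from GENCODE for mm9. Alternatives were other pseudocounts, filters, scalings and calls. Figures were drawn with Matplotlib 3.10.9, and values were computed with pandas 2.3.3, SciPy 1.17.1 and NumPy 2.4.6 under Python 3.11.15.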

Additional observations from a re-analysis of the deposited data

How the results depend on the processing

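The log2 ratios of the 9 tested ligands kept their side of 0.5 under the other pseudocounts (0.1 and 1 FPKM), the ratio of reads, and scaling by trimmed mean of M-values, the upper quartile or the median of ratios, which moved all ratios by 0.04, 0.09 and 0.04. Relative to the summed macrophage markers only Cxcl9 (-2.55) and Cxcl10 (-1.62) kept their side of 0.5. Cxcl14 (-0.49) and Cxcl16 (-0.21) lost the call and Cx3cl1 reversed to 0.22. Cxcl1 (0.82), Cxcl2 (1.02), Cxcl12 (1.00) and Cxcl13 (0.92) passed 0.5. With no filter on low values 1 ligand was called higher, Cxcl5, from 1 and 2 reads. The log2 ratio of the summed level was -1.28 with upper-quartile scaling, -0.75 without Cxcl9 and -0.44 without Cxcl9 and Cxcl10.

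Over all genes tested, 3029 were lower and 2265 higher. Scaling by the upper quartile turned this balance round, to 2590 lower and 2803 higher. The counts were 1661 and 965 with a pseudocount of 1 FPKM, 1417 and 910 with the call at 1, and 1313 and 662 where the whole interval had to pass 0.5. With at least 1 FPKM required, 1281 were higher. The low counts of Cxcl1, Cxcl2 and Cxcl5 limit what could be seen for them. No paired analysis was possible because each group has 1 pooled library.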

Other observations

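Esr1, the estrogen receptor gene, was at 4.82 FPKM in fl/fl and 8.44 FPKM in AD1KO, a log2 ratio of 0.81 (interval 0.65 to 0.97). Among the enzymes and binding proteins, Mmp2 (66.0 and 47.6 FPKM) and Sdc4 (31.7 and 22.7 FPKM), which cleave or present chemokines, lay just short of the call at -0.47 and -0.48, and Mmp14 (-0.18) and Furin (-0.14) were nearer to 0. Il17ra (-0.63), Nfkbia (-0.53) and Tnfrsf1a (-0.34) complete the upstream genes that are reported by name.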
